A study of Mus musculus with 686 samples.

Results

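miR-375-3p, miR-7a-5p and miR-7b-5p (mmu-miR-375-3p, mmu-miR-7a-5p and mmu-miR-7b-5p in the table), microRNAs (miRNAs) known from neuroendocrine cells, were followed through 13 mouse tissues. They are 3 of the 1964 miRNA entries in the deposited count table and were taken from it by name, with earlier results of these data known. The 686 small RNA libraries came from female BALB/cAnNTac mice aged 3 or 8 months, all fed the same food bars. Flight mice (FL) lived on the International Space Station, Habitat Ground Control mice (HGC) lived on Earth in flight-type cages with matched temperature, humidity and carbon dioxide, and Vivarium Ground Control mice (VGC) lived in standard cages. In the Live Animal Return set (LAR, 348 libraries: 114 FL, 113 HGC and 121 VGC), FL mice spent 39.5 days on the station and tissues were taken 2 to 4 days after splashdown. In the set terminated on the station (TERM, 338 libraries: 115 FL, 114 HGC and 109 VGC), tissues belong to mice killed 22 to 24 days after launch, whose carcasses were frozen whole and dissected later, the spleen excepted. LAR and TERM therefore differ in time in flight, in return and in freezing at once, and these cannot be told apart. The splashdown and the transport to shore were not matched in LAR HGC mice. LAR brain and TERM pancreas came from 3-month mice only. A mouse number names a different animal in each arm.

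A miRNA is cut from a short RNA hairpin and loaded into a protein complex, where bases 2 to 8 of the strand, its seed, pair with messenger RNAs and lower their output. miR-375 is abundant in the islets of the pancreas, where it restrains insulin release and is needed for normal endocrine cell numbers, and it is also found in pituitary and in several epithelia. The miR-7 family is abundant in islets, hypothalamus and pituitary, and the brain holds a circular RNA, Cdr1as, with many sites for it.

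The sequences below are shown because they set what the counting could and could not tell apart. They are RefSeq entries on mouse build GRCm38.p6, an earlier build than the GRCm39 named in the submitters' processing notes, written 5′ to 3′ in lower case with the seed in capitals. The 2 miR-7 members have the same seed and differ at 1 position before the 3′ end, A10U (the miR-7a base first, counted from 1 at the 5′ end), and miR-7b-5p is 1 base longer, with 24 against 23.
miR-7a-5p: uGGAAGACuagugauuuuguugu
miR-7b-5p: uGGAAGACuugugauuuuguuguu
Of 1679 mature mouse miRNAs in that table, these 2 alone carry the seed GGAAGAC. miR-7a-5p is made from 2 genes, so its counts cannot be divided between them: Mir7-2 at chr7:78888277-78888373 on the plus strand, which overlaps no annotated gene, and Mir7-1 at chr13:58392779-58392886 on the minus strand, inside an intron of Hnrnpk and on the same strand as it. Mir7b lies at chr17:56242988-56243098 on the plus strand and overlaps no annotated gene. Mir375 lies at chr1:74900658-74900721 on the minus strand and also overlaps none. The strands on the other arm of each hairpin do separate the genes, and they are given next with their seeds in capitals.
miR-7a-1-3p (Mir7-1): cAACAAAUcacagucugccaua
miR-7a-2-3p (Mir7-2): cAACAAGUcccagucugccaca
miR-7b-3p (Mir7b): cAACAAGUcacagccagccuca
miR-375-5p (Mir375): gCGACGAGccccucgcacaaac

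Levels are given as CPM, a miRNA's counts scaled in the usual way by all miRNA counts of its library. Libraries held between 0.181 M and 30.5 M miRNA counts, with a median of 3.88 M, so 1 count was worth between 0.0328 and 5.51 CPM, with a median of 0.258. Each library's miRNA profile, computed without the members and their other strands, was compared with the median profile of every tissue. These medians took in all libraries with the label, so the MAT median also holds MAT libraries nearest to other tissues. In 166 libraries (24.2%) the library's profile was nearest to a tissue other than the labelled one. Among libraries labelled mesenteric adipose tissue (MAT) this held for 46 of 57, of which 21 were nearest to pancreas, against 5 of 39 labelled pancreas, 7 of 58 labelled liver and 0 of 25 labelled brain. The labels were kept throughout, and the members' levels by tissue and their called differences are given with and without these libraries where they moved.

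miR-375-3p and miR-7a-5p had counts in all 686 libraries. miR-7b-5p had counts in 668, and 562 of these held at least 5. In the pancreas miR-375-3p ranked 1 among all miRNAs by median level and took a median of 7.09% of the miRNA counts. By CPM over miRNA counts, the brain ranked first among the tissues for miR-7b-5p only.

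In the 39 pancreas libraries miR-375-3p ranged from 1461 to 170610 CPM, with a median of 70853 and quartiles of 36063 and 90279. MAT came next with a median of 1285 CPM, followed by lung (950), thymus (888), kidney (404), brain (197), gonadal adipose tissue (GAT, 155), spleen (96.4), diaphragm (88.2), subcutaneous adipose tissue (SCAT, 85.1), brown adipose tissue (BAT, 37.2), liver (32.3) and heart (28.3). The pancreas median was 55.2 times that of MAT and 359 times that of brain. Along this order only pancreas and MAT had quartile ranges that did not overlap, and 11 of the 12 neighbouring pairs of tissues overlapped. In bulk tissue, fewer cells of a type and less RNA per cell cannot be told apart, and a pancreas library mixes islets with a much larger exocrine part.

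miR-7a-5p was spread over more tissues. Its median was 6054 CPM in pancreas, 2892 in brain, 1665 in spleen, 1359 in MAT, 985 in thymus and 985 in liver, and it then fell through kidney (402), GAT (273), BAT (253), SCAT (232), lung (206) and heart (144) to diaphragm (125). The pancreas median was 2.09 times the brain median. With the counts of 6 RNA classes as denominator, given below, the LAR brain median was instead above the LAR pancreas median. MAT's place rested on libraries nearest to another tissue, since the 21 nearest to pancreas had a median of 5868 CPM and the 11 nearest to MAT one of 827. Among libraries nearest to their own tissue MAT thus came after thymus (1153) and liver (979), and the pancreas median (6978) was 8.43 times that of MAT in place of 4.46 times. Neighbours overlapped in 11 of 12 pairs here as well, with the break between liver and kidney.

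miR-7b-5p was high in 2 tissues. Brain had a median of 962 CPM (quartiles 577 and 1281) and pancreas 671 (350 and 945). The brain median was 1.43 times the pancreas median, and their quartile ranges overlapped. MAT followed at 65.1 and thymus at 19.5, while the other 9 tissues had medians between 1.72 and 5.62. Among libraries nearest to their own tissue MAT was at 118 CPM (quartiles 32.9 and 165, n = 11), diaphragm was lowest at 0.870, and the pancreas median (695) was 5.87 times that of MAT in place of 10.3 times. With all libraries the only neighbouring pair with separate quartile ranges was thymus and heart. Without the libraries whose profiles were nearest to another tissue, the overlapping pairs numbered 8 of 12 for miR-375-3p, 10 for miR-7a-5p and 9 for miR-7b-5p.

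**Figure D1:**
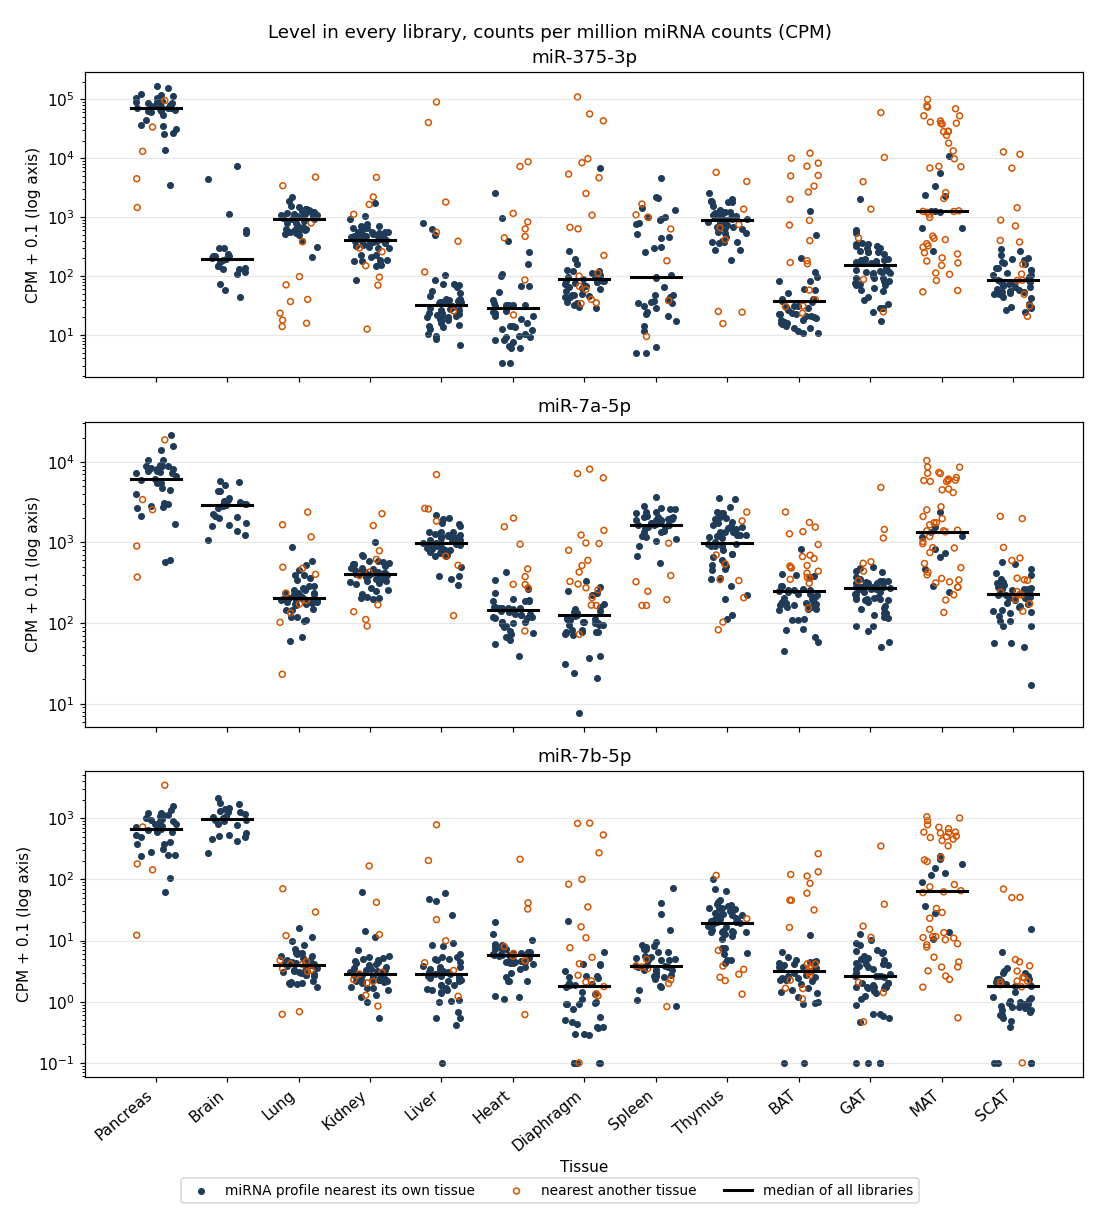
Level of the 3 members in every library by tissue, as CPM with 0.1 added on a log axis. Filled points are libraries whose miRNA profile was nearest to their own tissue, open points were nearest to another, and lines are medians of all libraries; miR-375-3p has its highest median in pancreas (70853 CPM), miR-7b-5p in brain (962 CPM), and open points reach pancreas levels in MAT.

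The MAT levels moved with its profiles. In the 21 MAT libraries nearest to pancreas, miR-375-3p had a median of 38025 CPM (6845 to 100214), and the summed level of 4 exocrine pancreas miRNAs (miR-216a-5p, miR-216a-3p, miR-216b-5p and miR-217-5p) had a median of 20984 CPM. In the 11 MAT libraries nearest to MAT the corresponding medians were 1257 CPM (263 to 10882) and 337 CPM (47.4 to 3425). Over all libraries the exocrine sum had a median of 11.4 CPM in GAT, 7.04 in SCAT and 5.37 in BAT. The part of the exocrine signal in the MAT levels was not tested. The same sum was above 100 CPM in 29 of the 36 MAT libraries with more than 1000 CPM of miR-375-3p. Among all MAT libraries it passed 100 CPM in 23 of 28 in LAR and 10 of 29 in TERM.

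**Figure D2:**
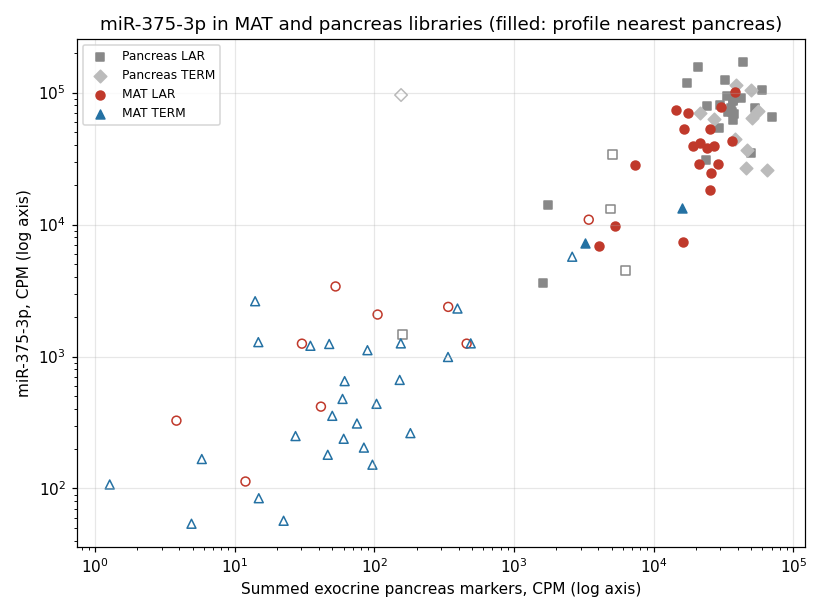
miR-375-3p against the summed exocrine pancreas miRNAs, both in CPM, in every MAT and pancreas library. Filled points are libraries with a profile nearest to pancreas, among them 21 of 57 MAT libraries, and these lie between 6845 and 100214 CPM of miR-375-3p.

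Of the 25 lung libraries with more than 1000 CPM of miR-375-3p, 23 had a lung profile and 2 had an exocrine sum above 100 CPM. In the 46 lung libraries with a lung profile miR-375-3p ranged from 215 to 2212 CPM, with a median of 1014, and the exocrine sum over all 58 lung libraries had a median of 2.55 CPM. In thymus 18 of 21 such libraries had a thymus profile and 4 an exocrine sum above 100 CPM, and the sum had a median of 3.89 CPM over all 58 thymus libraries. The part of the exocrine signal in these levels was not tested.

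Within the brain, 3 of 25 libraries exceeded 1000 CPM of miR-375-3p. They were LAR VGC mouse 5 (4518 CPM), TERM FL mouse 17 (7542 CPM) and TERM HGC mouse 18 (1126 CPM), and all 3 had an exocrine sum above 100 CPM, against a brain median of 17.5. The other brain libraries lay between 44.1 and 618 CPM.

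The strands of each hairpin were used very unequally. Over all libraries the counts of miR-375-3p were 95758 times those of miR-375-5p, which had 70 counts spread over 53 libraries. miR-7a-5p counts were 20.3 times those of both its 3p strands together in pancreas and 9.52 times in brain. For miR-7b-5p the excess over miR-7b-3p was 573 times in pancreas and 42.8 times in brain.

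These 3p strands gave a view of the genes behind miR-7a. miR-7a-1-3p, from the Hnrnpk intron, had counts in all 686 libraries, with a median of 283 CPM in pancreas, 218 in brain and 83.2 over all libraries. miR-7a-2-3p, from Mir7-2, had counts in 341 libraries and medians of 56.1 CPM in brain and 25.4 in pancreas, while the median of every other tissue was under 1 CPM. Among libraries nearest to their own tissue it lay between 43.9 and 115 CPM in brain and between 4.85 and 51.8 in pancreas, and in the other 11 tissues it reached at most 10.8, in GAT. miR-7b-3p had a median of 22.4 CPM in brain and 0 or near 0 elsewhere, with counts in 13 of 39 pancreas libraries.

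The ratio of miR-7a-5p to miR-7b-5p set pancreas and brain apart. In pancreas libraries nearest to pancreas it ranged from 5.77 to 15.8 with a median of 9.08 (n = 34), and in brain from 2.04 to 4.07 with a median of 3.02 (n = 25). The 2 groups did not overlap. On the log2 scale the mean ratio was 3.20 ± 0.314 (SD) in pancreas and 1.56 ± 0.259 in brain, a difference of 1.64, with p = 2e-05 in a two-sided permutation test, the smallest the 100000 resamples could give. With all 39 pancreas libraries the difference was again 1.64 at the same p, and the range in pancreas widened to 2.09 to 74.6. Within LAR the difference was 1.56 and within TERM 1.80, among libraries nearest to their own tissue. Since 8 mice gave both tissues, the libraries are not wholly independent. The members were also listed for their pancreas and brain levels, with earlier results known, so the p-value is descriptive. Own-profile MAT libraries had a median ratio of 11.3 (quartiles 6.33 and 15.6, lowest 2.72, n = 11), which overlapped pancreas and reached into the brain range. In the other 10 tissues the medians of own-profile libraries ran from 26.9 in heart to 418 in spleen.

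Across the 13 tissue medians, on the log2(CPM + 1) scale, the members were alike to different degrees, with r = 0.80 between miR-7a-5p and miR-7b-5p, 0.65 between miR-375-3p and miR-7b-5p and 0.60 between miR-375-3p and miR-7a-5p. Among 596 miRNAs with a median of at least 10 CPM in some tissue, those most like miR-375-3p were miR-200c-5p (r = 0.85), miR-6969-5p (0.84) and miR-200b-5p (0.84). Closest to miR-7a-5p were miR-29b-3p (0.89), miR-3068-5p (0.87) and miR-1843a-5p (0.86). For miR-7b-5p they were miR-153-3p (0.91), miR-384-3p (0.90) and miR-369-3p (0.87), of which miR-153-3p had medians of 595 CPM in brain and 303 in pancreas. These r values describe 13 points that share libraries and depth.

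Whether flight changed the members in the tissues where they are highest was asked first. In LAR pancreas miR-375-3p ran from 1461 to 123475 CPM in FL (median 69557, n = 10), from 3580 to 104550 in HGC (76175, n = 8) and from 30981 to 170610 in VGC (78241, n = 10). The 3 arms overlapped over most of their range. miR-7a-5p medians were 3130, 5608 and 5784 CPM, and miR-7b-5p medians 442, 556 and 733 CPM, in FL, HGC and VGC in turn. FL against HGC in edgeR gave a log2 fold change of -0.14 (SE 0.61, adjusted p = 0.953) for miR-375-3p, -0.40 (SE 0.54, adjusted p = 0.784) for miR-7a-5p and -0.36 (SE 0.56, adjusted p = 0.824) for miR-7b-5p. FL against VGC, which shares the FL libraries, gave -0.53, -0.60 and -0.66 in edgeR, with adjusted p of 0.652, 0.556 and 0.537.

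The 3 lowest FL values of miR-375-3p in LAR pancreas belonged to libraries with other profiles. FL mice 3, 13 and 14 were nearest to brain, GAT and MAT, and VGC mouse 14 was nearest to spleen. Without them the FL against HGC log2 fold changes in edgeR were 0.34, -0.04 and -0.15 for miR-375-3p, miR-7a-5p and miR-7b-5p, with adjusted p of 0.942, 0.977 and 0.957. The sign for miR-375-3p thus turned, and neither value passed the test.

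TERM pancreas had few libraries. miR-375-3p was 25822, 44397, 70351 and 95799 CPM in FL mice 4, 3, 2 and 1, and 26602, 36982, 63635, 72050 and 105135 CPM in the 5 HGC mice, with 63240 and 113697 CPM in the 2 VGC mice. The FL and HGC values interleaved. miR-7b-5p was 382, 961, 996 and 3459 CPM in FL and 237, 778, 1223, 1344 and 1573 in HGC, and the highest FL value came from mouse 1, whose profile was nearest to MAT and whose exocrine sum was 155 CPM. edgeR gave FL against HGC log2 fold changes of -0.05, -0.29 and 0.47 for miR-375-3p, miR-7a-5p and miR-7b-5p, with adjusted p of 0.973, 0.863 and 0.765.

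Brain libraries all had a brain profile. In LAR brain miR-7b-5p was 807, 996, 1239 and 1699 CPM in FL, 495, 962, 1281 and 1796 in HGC and 267, 464, 1030 and 1297 in VGC. The arms overlapped. FL against HGC in edgeR was 0.02 (SE 0.52) for miR-7b-5p and 0.09 (SE 0.50) for miR-7a-5p, both with adjusted p = 0.997. FL against VGC was 0.24 (SE 0.52, adjusted p = 0.832) and 0.26 (SE 0.50, adjusted p = 0.811). miR-7a-5p was 2670, 2913, 3201 and 5642 CPM in LAR FL and 1235, 2801, 3349 and 5799 in LAR HGC, against 1088, 1585, 2268 and 4322 in LAR VGC.

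In TERM brain miR-7b-5p was 423, 517, 934 and 2146 CPM in FL, 525, 577, 893, 1068 and 1457 in HGC and 770, 922, 1163 and 1395 in VGC. miR-7a-5p was 1389, 2010, 2148 and 4383 CPM in FL, 1625, 1744, 2892, 3240 and 3586 in HGC and 2043, 2976, 3003 and 5098 in VGC. The arms overlapped for both. FL against HGC in edgeR was 0.10 (SE 0.491) for miR-7b-5p and -0.12 (SE 0.405) for miR-7a-5p, with adjusted p of 1.00 for both. FL against VGC in edgeR was -0.10 (SE 0.518, adjusted p = 1.00) and -0.42 (SE 0.427, adjusted p = 0.996).

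For miR-375-3p in brain a single library stood far above the others in each set. It was 44.1, 131, 147 and 188 CPM in LAR FL, 132, 139, 174 and 241 in HGC and 73.1, 205, 218 and 4518 in VGC. Apart from VGC mouse 5, with an exocrine sum of 503 CPM, the arms lay within one range. edgeR put FL against VGC at -3.81 (SE 1.08, p = 0.0033, adjusted p = 0.295) and FL against HGC at -0.56 (SE 0.97, adjusted p = 0.997). In TERM brain FL against HGC was 2.02 and FL against VGC 3.27 in edgeR (adjusted p 1.00 and 0.481), where FL mouse 17 held 7542 CPM beside an exocrine sum of 1701 CPM.

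**Figure D3:**
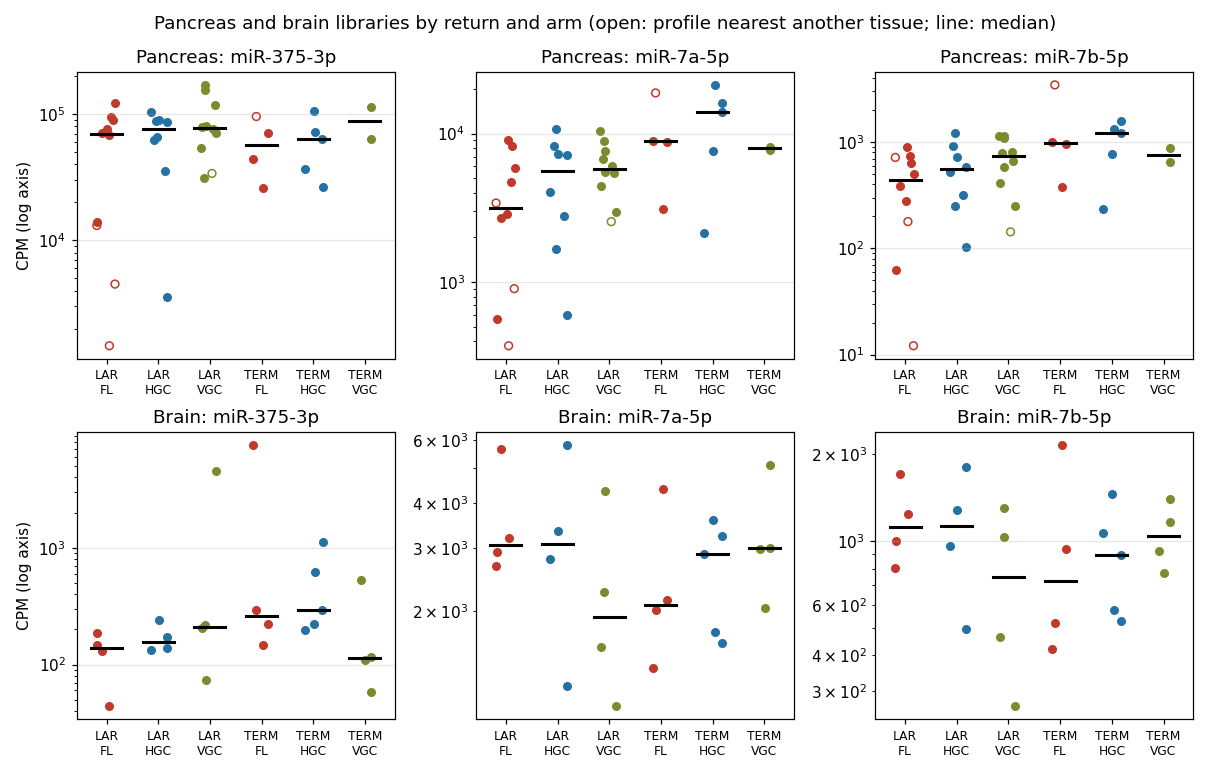
miR-375-3p, miR-7a-5p and miR-7b-5p in every pancreas and brain library by arm and set, in CPM on a log axis. The FL, HGC and VGC libraries overlap in each panel, as for LAR pancreas miR-375-3p, where the medians are 69557, 76175 and 78241 CPM.

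Age was compared in LAR pancreas, where 8 against 3 months gave edgeR log2 fold changes of -0.00, 0.31 and 0.40 for miR-375-3p, miR-7a-5p and miR-7b-5p (adjusted p 0.998, 0.850 and 0.831). TERM against LAR pancreas gave 1.06 (SE 0.45, adjusted p = 0.0837) for miR-7a-5p and 0.99 (SE 0.46, adjusted p = 0.109) for miR-7b-5p in edgeR, and -0.10 for miR-375-3p (adjusted p = 0.920). None of these passed.

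Over the LAR pancreas libraries nearest to pancreas (n = 24) the 2 miR-7 members rose and fell together, with r = 0.962 (adjusted p = 9e-05, permutation test) and rho = 0.917 (adjusted p = 9e-05, permutation test) on log2(CPM + 1). Leaving out the 2 libraries farthest from the median gave r = 0.915, and within the arms r was 0.961, 0.985 and 0.968 in FL, HGC and VGC. On plate 6 of the study's sample sheet, the only plate with at least 6 of these libraries (n = 9), r was 0.964. miR-375-3p went with miR-7a-5p at r = 0.720 (adjusted p = 0.00405, permutation test), with rho = 0.305 (adjusted p = 0.477, permutation test) and r = 0.180 without the 2 farthest libraries. Within the arms r was 0.863, 0.825 and -0.054 in FL, HGC and VGC, and on plate 6 it was -0.0317. For miR-375-3p and miR-7b-5p r was 0.668 (adjusted p = 0.00462, permutation test), with rho = 0.295 and r = 0.157 without the 2 farthest libraries. Among these 24 libraries both relations rested on FL mouse 16 and HGC mouse 14, whose brain sums were 10260 and 13419 CPM. With the acinar miR-217-5p and miR-216a-5p, markers of the exocrine pancreas, the members gave r between 0.523 and 0.776 and rho between -0.156 and 0.231. Without the 2 farthest of the 24 libraries these r lay between -0.529 and -0.040. With all 28 LAR pancreas libraries, those nearest to another tissue included, miR-375-3p and miR-7a-5p gave rho = 0.527 (adjusted p = 0.0186, permutation test) and r = 0.662 without the 2 farthest libraries. For miR-375-3p and miR-7b-5p rho was 0.442 (adjusted p = 0.0441, permutation test) and r without the 2 farthest 0.710. miR-375-3p and miR-217-5p then gave rho = 0.508 (adjusted p = 0.0186, permutation test) and r = 0.684 without the 2 farthest, so these relations depended on which libraries were kept. In all, 9 pairs were computed.

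Over all tissues, FL against HGC was called for the members in 4 of 78 tests by edgeR (adjusted p under 0.05), 3 higher and 1 lower, where 1.02% of the 20330 tests over all miRNAs were called, 0.556% higher and 0.462% lower. An unadjusted p under 0.05 was reached in 14 of the 78, and in 10.1% of the tests over all miRNAs. FL against VGC gave 3 of 78 (0.703% over all miRNAs), with 20 at an unadjusted p under 0.05 (9.55% over all miRNAs). HGC against VGC gave 0 of 78 in edgeR (0.177% over all miRNAs), with 6 at an unadjusted p under 0.05 (9.56% over all miRNAs), while DESeq2 called 5 (0.6% over all miRNAs), the Wilcoxon test 0 (0.00984%) and a rule of medians called 9 (2.65%). That rule takes the study's limits, a log2 fold change over 1 and Cohen's d over 0.5, but applies them to medians of log2(CPM + 1) over miRNA counts, not to the study's own normalised values, and the added 1 lowers the fold of low-count miRNAs. The 3 comparisons share their libraries in pairs. The FL against HGC calls include miR-7b-5p in LAR liver, known beforehand, and miR-375-3p in the same fit. Their count beside the share over all miRNAs is therefore a description. The called results are described in turn, and each has at least 1 library in which markers of another tissue were raised.

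The count of FL against HGC calls depended on the settings. It was 0 with plate as a term (0.0836% over all miRNAs), with the mouse number as a block (0.256%) and by the Wilcoxon test (0.172%), 1 without libraries nearest to another tissue (0.101%) or without the pools that held most of them (0.0416%), and 7 by the rule of medians (2.94%). For FL against VGC it was 0 with plate (0.00492%) or the block (0.00492%), by the Wilcoxon test (0.00984%), and without those libraries (0.213%) or pools (0.166%). It was 1 with age as a term (0.117%), 5 with edgeR's own filter (0.729%), 6 without a filter (0.481%), 7 with DESeq2 (0.964%) and 8 by the rule of medians (3.47%). HGC against VGC gave 1 call over 6 RNA classes (0.202%).

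**Figure D4:**
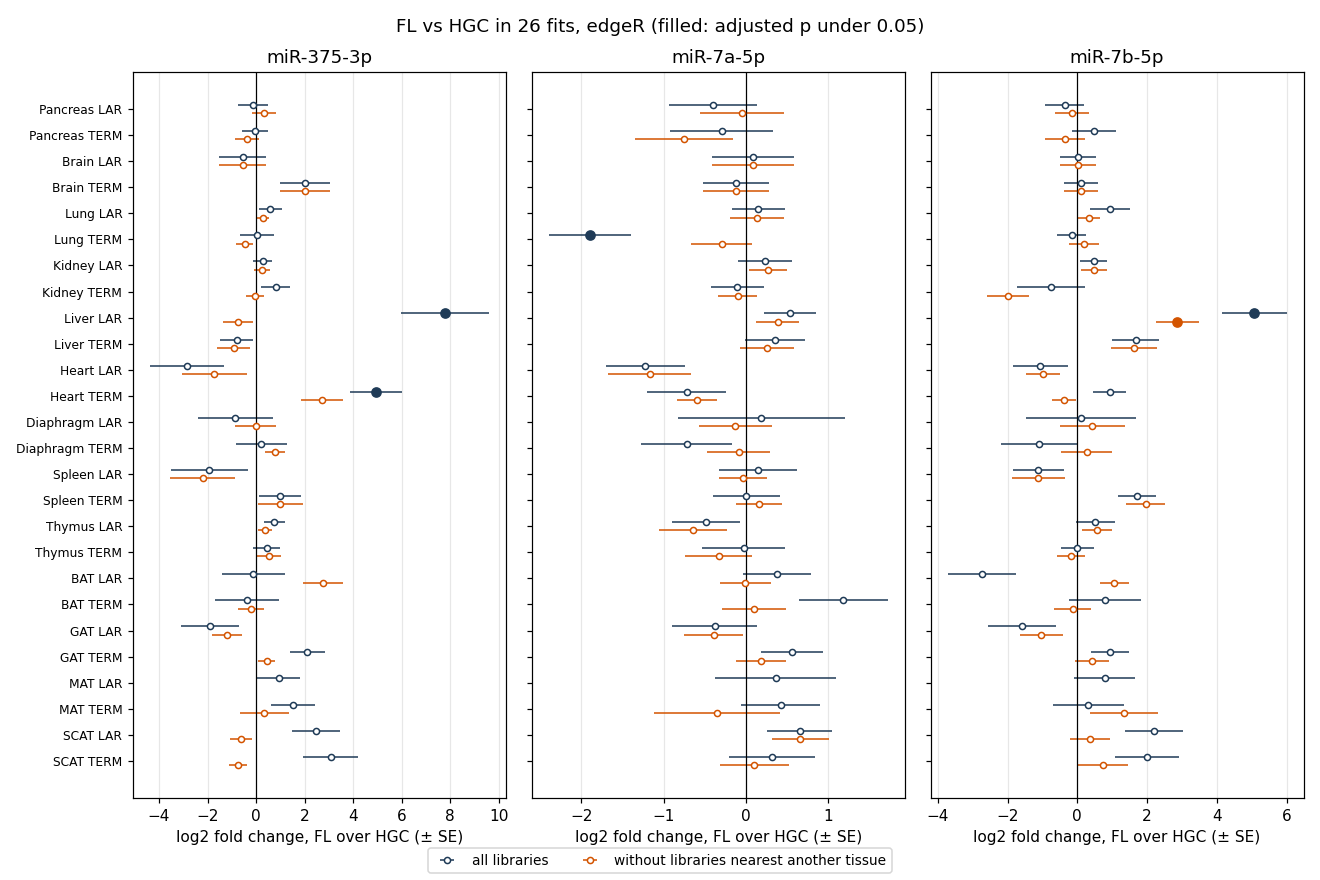
Log2 fold change of FL over HGC with its SE in 26 fits, 1 for each tissue and set, from edgeR. Dark points use all libraries and orange points leave out those nearest to another tissue; filled points have an adjusted p under 0.05, which holds for 4 dark points and, without those libraries, for miR-7b-5p in LAR liver.

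The low-count change of miR-7b-5p in LAR liver was the largest FL against HGC effect for this member. FL libraries held 2.42, 2.57, 3.19, 5.22, 8.15, 9.03, 44.1, 47.8, 204 and 780 CPM, from 12 to 794 counts, with a median of 8.59 CPM. HGC libraries lay between 0.323 and 4.23 CPM (median 2.10, n = 9), from 1 to 17 counts. VGC libraries lay between 0.448 and 9.80 CPM (median 2.35, n = 10). Of the 10 FL libraries, 7 were above every HGC library and 4 above every VGC library.

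The flight ratio of miR-7b-5p in LAR liver was known from an earlier analysis of these data, so its p-values are descriptive. edgeR put FL over HGC at 5.07 (SE 0.927, adjusted p = 0.00454) and FL over VGC at 4.44 (SE 0.856, adjusted p = 0.00989) on the log2 scale. In this fit 5.86% of 717 miRNAs were called for FL against HGC and 2.93% for FL against VGC. With each FL or HGC library left out in turn, the FL against HGC value ran from 3.46 to 5.26, and all 19 refits were called. No refit left out both FL libraries with a pancreas profile, described next, so the refits could not show whether the call rested on them.

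The highest FL values came with markers of other tissues. FL mice 4 and 2, at 780 and 204 CPM, had profiles nearest to pancreas, with 90368 and 40496 CPM of miR-375-3p, exocrine sums of 29327 and 20055 CPM, and 1687 and 878 CPM of the liver miRNA miR-122 (both strands), whose median over LAR liver was 321931. FL mice 16 and 1, at 47.8 and 44.1 CPM, had a liver profile but 9322 and 6420 CPM of 6 summed brain miRNAs (miR-124-3p, miR-9-5p, miR-9-3p, miR-128-3p, miR-137-3p and miR-129-1-3p). That sum ranged from 68.2 to 606 CPM in HGC and from 191 to 1527 in VGC, and all 6 brain miRNAs had counts in every LAR liver library. The part of these signals in the result was not tested.

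Without the libraries nearest to another tissue, FL over HGC was 2.87 (SE 0.624, adjusted p = 0.0499) and FL over VGC 2.21 (adjusted p = 0.140) in edgeR. Leaving out also the libraries above 1000 CPM of the brain miRNAs kept 5 FL, 8 HGC and 7 VGC libraries and gave 1.59 (SE 0.486, p = 0.00325, adjusted p = 0.458) for FL over HGC and 1.40 (adjusted p = 0.697) for FL over VGC. The 5 FL libraries then held 2.42, 2.57, 3.19, 8.15 and 9.03 CPM, and 3 of them lay above the highest of the 8 HGC libraries kept, at 2.96 CPM. A Wilcoxon rank-sum test over all libraries gave p = 0.000974 (exact, adjusted p = 0.420).

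**Figure D5:**
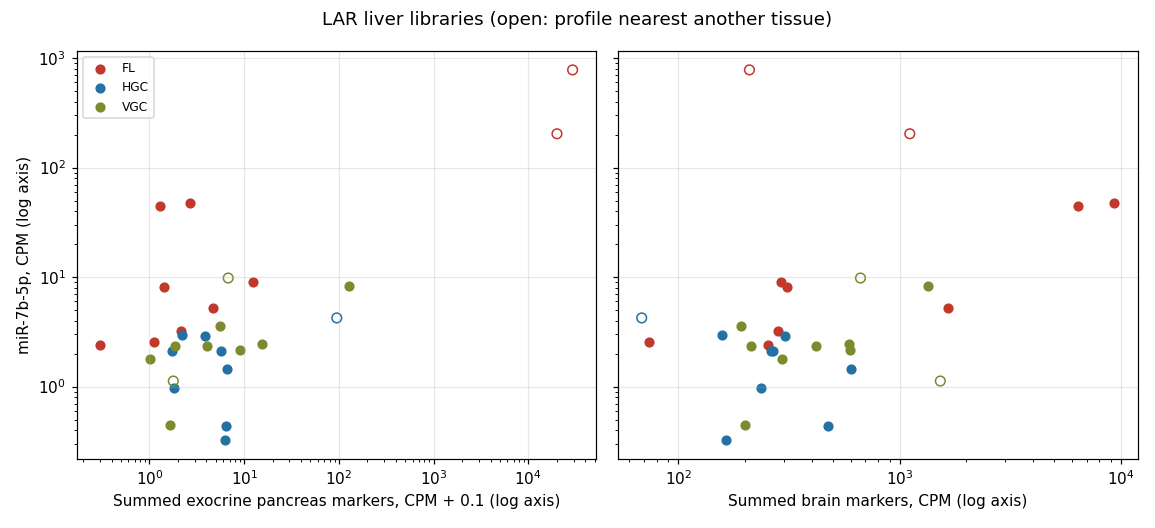
miR-7b-5p in each LAR liver library against the summed exocrine pancreas miRNAs (left) and the summed brain miRNAs (right), all in CPM on log axes. The 2 highest FL libraries (780 and 204 CPM) lie at exocrine sums of 29327 and 20055 CPM, and the next 2 (47.8 and 44.1 CPM) at brain sums of 9322 and 6420 CPM.

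In TERM liver miR-7b-5p medians were 2.99 CPM in FL, 2.42 in HGC and 2.44 in VGC, and the ranges overlapped. The 2 highest FL libraries, at 59.0 and 25.7 CPM, belonged to mice 1 and 16 and had brain sums of 16354 and 4658 CPM. FL over HGC was 1.67 (SE 0.672, adjusted p = 0.495) in edgeR.

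miR-375-3p in LAR liver was called at 7.78 (SE 1.81, adjusted p = 0.0184 in edgeR), although its median was lower in FL (16.6 CPM) than in HGC (22.6 CPM) or VGC (39.7 CPM). The fit rested on FL mice 4 and 2 with their pancreas profiles, and without the libraries nearest to another tissue the value turned to -0.76 (adjusted p = 0.716). miR-7a-5p in LAR liver was not called, at 0.54 (SE 0.32, adjusted p = 0.373 in edgeR), with medians of 1554 CPM in FL, 1035 in HGC and 900 in VGC.

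In TERM heart miR-375-3p ranged from 15.9 to 8749 CPM in FL (median 393, n = 9), from 6.41 to 161 in HGC (21.9, n = 9) and from 6.00 to 447 in VGC (30.3, n = 10). FL libraries were the highest, and the ranges overlapped. The sum of 5 epithelial miRNAs of the miR-200 family moved with the arm, with medians of 1267 CPM in FL (133 to 37553, 5 of 9 above 1000), 202 in HGC (139 to 2111) and 199 in VGC (135 to 2996), and the summed miR-96, miR-182 and miR-183 had medians of 48.6, 20.3 and 20.5 CPM. Brain sums above 1000 CPM were found in 3 of 9 FL, 0 of 9 HGC and 0 of 10 VGC libraries, and exocrine sums above 100 CPM in 3 of 9, 0 of 9 and 1 of 10. Their part in the result was not tested. edgeR gave 4.95 (SE 1.07, adjusted p = 0.0404) for FL over HGC and 3.85 (SE 0.97, adjusted p = 0.0273) for FL over VGC, in fits where 0.739% and 2.83% of 812 miRNAs were called. Without FL mouse 1, whose profile was nearest to brain (brain sum 12634 CPM, exocrine sum 398 CPM), the values were 3.16 (adjusted p = 0.237) and 2.06 (adjusted p = 0.295). Without the libraries nearest to another tissue they were 2.71 (adjusted p = 0.507) and 2.16 (adjusted p = 0.910). The FL against HGC call was also lost, at values between 4.81 and 4.95 and adjusted p between 0.0507 and 0.0753 in edgeR, without HGC mouse 1, 2, 3, 5, 11, 12 or 14 or VGC mouse 1, 5 or 13. The FL against VGC call was lost without VGC mouse 2, 3, 4, 5, 11 or 16, at values between 3.72 and 3.83 and adjusted p between 0.0511 and 0.0549. As differences of medians of log2(CPM + 1), FL minus HGC and FL minus VGC were 4.11 and 3.72 in TERM heart. In LAR heart miR-375-3p went the other way, at -1.58 and -1.54 (adjusted p = 0.612 for both, exact Wilcoxon test). There miR-7b-5p was -1.35 and -1.40 (adjusted p 0.384 and 0.358, exact Wilcoxon test).

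In TERM lung miR-7a-5p was lower in FL than in HGC by edgeR, and the FL libraries overlapped both HGC and VGC. It ranged in FL from 23.1 to 457 CPM (median 184, n = 10) against 191 to 2380 in HGC (289, n = 9), and from 121 to 478 in VGC (174, n = 9). edgeR gave -1.90 (SE 0.502, adjusted p = 0.0340) for FL over HGC, in a fit with 4.21% of 832 miRNAs called (adjusted p = 0.647 by the exact Wilcoxon test), and -0.20 (SE 0.491, adjusted p = 0.914) for FL over VGC. The 3 highest HGC libraries were mouse 12 (2380 CPM) and mouse 16 (1174 CPM), nearest to spleen with blood cell miRNA sums of 86292 and 116125 CPM, and mouse 5 (1660 CPM), nearest to liver with 366303 CPM of miR-122. Without the libraries nearest to another tissue the value was -0.29 (adjusted p = 0.864). Leaving out 1 library at a time lost the call without HGC mouse 5 (-1.21, adjusted p = 0.120), HGC mouse 12 or 16 or FL mouse 2, 3, 4, 5, 14 or 16 in edgeR, the last 8 at values between -1.91 and -1.64 and adjusted p between 0.0503 and 0.0771.

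In LAR GAT miR-7b-5p was at most 2.58 CPM in FL and 17.1 in HGC. In VGC 9 of 10 libraries were at most 4.18 CPM and mouse 1, nearest to pancreas with an exocrine sum of 33860 CPM, held 350 CPM. edgeR gave -3.89 (SE 1.03, adjusted p = 0.0302) for FL over VGC, with 4.07% of 761 miRNAs called, and -0.37 (adjusted p = 0.896) without that library. The call was lost also without FL mouse 1, 2, 3, 5, 11 or 12, at values between -4.07 and -3.78, about as large as with all libraries, and adjusted p between 0.0501 and 0.0572 in edgeR.

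Age and the age by flight interaction were tested in 24 fits each. For 8 against 3 months edgeR called 1 of 72 member tests (0.982% of 18846 tests over all miRNAs), and 11 had an unadjusted p under 0.05 (12.1% over all miRNAs). It was miR-375-3p in TERM MAT, with 54.0 to 13359 CPM at 3 months (median 1206, n = 15) and 56.9 to 2623 CPM at 8 months (median 287, n = 14). The log2 fold change was -2.06 (SE 0.716, adjusted p = 0.0465 in edgeR), in a fit with 16.8% of 749 miRNAs called. Of the 8-month libraries 10 were nearest to spleen, against 1 at 3 months, and the median blood cell miRNA sum was 115143 against 22660 CPM. Among libraries nearest to MAT all 3 members were called, at -2.56 for miR-375-3p, -2.16 for miR-7a-5p and -3.87 for miR-7b-5p (adjusted p 0.0343, 0.00579 and 0.00196 in edgeR), but only HGC mouse 16 was left at 8 months, so these compare a single library with the rest.

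The interaction was called in 2 of 72 tests (0.6% over all miRNAs), both in TERM BAT, and 12 had an unadjusted p under 0.05 (10.0% over all miRNAs). miR-375-3p was 10.7, 39.7, 97.0, 182 and 5027 CPM in FL at 3 months and 20.1, 29.2, 30.2, 31.1 and 170 at 8 months. HGC held 15.0 to 57.8 CPM at 3 months and 13.2, 37.6, 119, 401 and 8290 CPM at 8 months. A single library in each arm stood far above the others, in opposite age groups. The interaction was -9.71 (adjusted p = 0.0196 in edgeR) for miR-375-3p and -6.48 (adjusted p = 0.0346) for miR-7b-5p, where 7.4% of 838 miRNAs were called. FL mice 1 and 4 and HGC mouse 11 were nearest to brain, with brain sums of 26466, 63922 and 32932 CPM. Without libraries nearest to another tissue the interactions were -1.86 (adjusted p = 0.367) for miR-375-3p and 2.06 (adjusted p = 0.367) for miR-7b-5p, in edgeR.

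For 8 against 3 months the members' calls came to 0 without TMM factors (0.929% over all miRNAs), 4 without a filter (0.539%) and 3 among libraries nearest to their own tissue (1.99%), the 3 being those in TERM MAT with a single 8-month library. Among the latter, the interaction gave 0 calls (0.073%) and TERM against LAR 1 (8.32%).

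TERM against LAR was called for the members in 4 of 39 tests by edgeR (8.42% of 10157 tests over all miRNAs, 4.33% lower in TERM), all lower in TERM, and 12 had an unadjusted p under 0.05 (20.9% over all miRNAs). In MAT miR-375-3p was -4.89 (adjusted p = 7.27e-08), miR-7a-5p -2.09 (adjusted p = 1.87e-05) and miR-7b-5p -2.94 (adjusted p = 0.000323), where 46.3% of 737 miRNAs were called. Libraries nearest to pancreas numbered 19 in LAR MAT and 2 in TERM MAT. Without libraries nearest to another tissue the MAT values in edgeR were -1.91 (adjusted p = 0.244), 0.71 (adjusted p = 0.760) and 0.92 (adjusted p = 0.695). In liver, where 3.63% of miRNAs were called, miR-375-3p was -2.14 (adjusted p = 0.0401 in edgeR), and 1.04 (adjusted p = 0.168) without the libraries nearest to another tissue. The same restriction called miR-7a-5p in thymus at 0.70 (SE 0.245, adjusted p = 0.0189 in edgeR), against 0.43 (adjusted p = 0.256) with all libraries.

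A list of 14 miRNAs taken as endocrine and neuronal companions was counted beside the members: miR-96-5p, miR-182-5p, miR-183-5p, miR-184-3p, miR-153-3p, miR-129-5p, miR-129-1-3p, miR-129-2-3p, miR-127-3p, miR-335-5p, miR-204-5p, miR-200a-3p, miR-148a-3p and miR-26a-5p. edgeR called 7 of 364 tests (1.92%) for FL against HGC, 6 higher and 1 lower, beside 1.02% of all miRNAs. All 6 higher ones were in LAR liver, among them the neuronal miR-153-3p at 4.09 (SE 0.811, adjusted p = 0.00743), the imprinted miR-127-3p at 2.33 (SE 0.553, adjusted p = 0.0184) and the epithelial miR-200a-3p at 2.56 (SE 0.773, adjusted p = 0.0427), in the fit that holds the pancreas-profile and brain-marker libraries described above. Without the libraries nearest to another tissue miR-153-3p was 3.05 (adjusted p = 0.0499 in edgeR) and the other 5 were not called, with miR-127-3p at 1.95 (adjusted p = 0.0542), miR-200a-3p at 0.37 (adjusted p = 0.328) and miR-182-5p at -0.06 (adjusted p = 0.981). The lower one was miR-148a-3p in TERM lung, at -2.56 (SE 0.658, adjusted p = 0.0340), and 0.15 (adjusted p = 0.922 in edgeR) without those libraries. FL against VGC called 11 of 364 (3.02%, beside 0.703% of all miRNAs), HGC against VGC 1 of 364 (0.275%, beside 0.177%), age 6 of 336 (1.79%, beside 0.982%) and the interaction 4 of 336 (1.19%, beside 0.6%). TERM against LAR called 16 of 182 (8.79%, beside 8.42% of all miRNAs), all 16 lower in TERM, where 4.33% of all miRNAs were called lower. Among libraries nearest to their own tissue edgeR called 1 of 348 tests (0.287%) for FL against HGC, beside 0.101% of all miRNAs, and 1 of 348 for FL against VGC, beside 0.213%. Age called 10 of 320 (1.99% of all miRNAs), 3 of them in MAT, and TERM against LAR 19 of 181 (8.32% of all miRNAs), 17 of them lower in TERM. The interaction called 0 of 306 (0.073% of all miRNAs).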

How the data were processed

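Small RNA libraries (MGIEasy kit, BGISEQ500RS) were quantified by the authors with miRMaster 2.0 on GRCm39 and miRBase 22.1. The deposited miRNA table holds estimated counts (0.790% of its values carry a fraction, among them 53.4% of those of miR-7a-5p) and was rounded for the count models. The deposited tables of the other RNA classes used here hold raw counts. The members and lists were chosen with earlier results of these data known. CPM were computed over miRNA counts. Arms were compared within each tissue and set by edgeR's quasi-likelihood test (edgeR 4.0.16, R 4.3.3) with TMM factors on miRNAs with at least 5 counts in at least 10% of libraries, Benjamini-Hochberg adjusted over all miRNAs of the fit and called under 0.05. The test was also run on counts simulated from own-profile LAR liver and LAR brain libraries. These held no other-profile libraries, so calls resting on such libraries were not checked. Age and age by flight were fitted where both ages were present, and TERM against LAR with both sets. Depth was 0.181 M to 30.5 M miRNA counts, and low counts limit miR-7b-5p outside pancreas and brain.

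The nearest tissue of a library was the one with the highest correlation over 724 tissue-varying miRNAs. Plates and sequencing pools are those of the study's supplementary sample sheet, matched by library name for all 686 libraries. Alternatives were DESeq2 1.42.0 (its size factors), no TMM, other filters, age, plate or mouse number as a term, exclusions of libraries or pools, a Wilcoxon test, and a rule of medians (difference of medians of log2(CPM + 1) over 1 and Cohen's d over 0.5, limits the study set on its own normalised values). Chosen after seeing the data were the sum of 6 RNA classes as denominator, the liver fit without brain-marker libraries, and the leave-one-out fits in heart, lung, GAT and BAT. The members, their other strands, the 3 most similar miRNAs, marker lists and the 14 listed miRNAs were named.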

Additional observations from a re-analysis of the deposited data

Results flagged for a closer look

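Single libraries that stood apart were searched for in 51 sets of values, the 3 members in 17 groups of 4 to 10 libraries of pancreas, brain and liver, and 3 were found, where chance gives about 1 in 20. The sets of 1 group share their libraries. In LAR pancreas HGC mouse 14 had 3580 CPM of miR-375-3p, against 35144 to 104550 CPM in the other 7 of its group, and its profile was nearest to pancreas. In LAR liver FL mouse 4 had 6952 CPM of miR-7a-5p against 885 to 2599 CPM in the others (n = 10), with a profile nearest to pancreas. In TERM liver HGC mouse 14 had 494 CPM of miR-375-3p against 21.6 to 74.4 CPM in the others (n = 10), with a liver profile.

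The FL against HGC effect differed between ages in TERM BAT by the interaction test in edgeR, at -9.71 for miR-375-3p (adjusted p = 0.0196) and -6.48 for miR-7b-5p (adjusted p = 0.0346). FL over HGC was 4.91 at 3 months and -4.79 at 8 months for miR-375-3p (adjusted p 0.178 and 0.347), and 3.66 and -2.82 for miR-7b-5p (adjusted p 0.180 and 0.437). Without FL mouse 1 or HGC mouse 11 the miR-375-3p interaction was -5.72 or -6.26 (adjusted p 0.122 and 0.125). For miR-7b-5p it was -3.44 without HGC mouse 11 (adjusted p = 0.396), and the call was also lost without FL mouse 1, 4, 11, 13 or 16 or HGC mouse 1, 2, 3, 4 or 5, at values between -6.64 and -5.42 and adjusted p between 0.0537 and 0.0946.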

How the results depend on the processing

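Calls for FL against HGC (4 with all libraries) came to 0 with plate as a term and by the Wilcoxon test, 1 without libraries nearest another tissue or without their pools, and 7 by the rule of medians. Those for FL against VGC (3) came to 6 without the low-count filter, 5 with filterByExpr, 7 with DESeq2, 1 with age as a term, 8 by the rule of medians, and 0 with plate, by Wilcoxon, or without libraries nearest another tissue or their pools. HGC against VGC (0) gave 1 over 6 RNA classes, 5 with DESeq2 and 9 by the rule of medians. Age (1) gave 0 without TMM, 4 without the filter and 3 among own-profile libraries, all in TERM MAT with 1 library at 8 months. The interaction (2) gave 0 and TERM against LAR (4) gave 1 among own-profile libraries.

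miR-7b-5p in LAR liver, FL over HGC, was 4.55 with plate as a term (adjusted p = 0.0689 in edgeR). It was 1.59 without libraries nearest another tissue or with brain markers (adjusted p = 0.458 in edgeR). The difference of medians of log2(CPM + 1) was 1.63 (adjusted p = 0.420 by the Wilcoxon test). Adjusted p ran from 7.8e-09 to 0.458 over 32 alternatives. Leaving out 1 library gave 3.46 to 5.26 for miR-7b-5p in LAR liver and kept its call and that of miR-375-3p there in 19 of 19 refits each. No refit left out both FL liver libraries with a pancreas profile, so these refits could not show whether the calls rested on them. The calls in TERM heart and TERM lung (FL against HGC) were lost in 11 of 28 and 9 of 19. Reversed was miR-375-3p in LAR liver (-0.76 without other-profile libraries, -0.73 without their pools, -0.62 also without brain-marker libraries, and -0.44 as the difference of medians of log2(CPM + 1)). Without other-profile libraries, the miR-7b-5p interaction in BAT (2.06) and TERM against LAR for miR-375-3p in liver (1.04), miR-7a-5p in MAT (0.71) and miR-7b-5p in MAT (0.92) were reversed too. The cause was not tested.

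Mouse numbers do not pair the arms. Of 653 same-number pairs, 40.3% had r above 0.1, with a median r of 0.0298, in no fit did every pair pass, and 79 correlated best with their own number. With the replicate block the calls came to 0 for FL against HGC and 0 for FL against VGC, and miR-7b-5p in LAR liver to 3.40 (adjusted p = 0.345).

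With the counts of 6 RNA classes as the denominator of the CPM, median levels in LAR were 1555 for miR-375-3p and 123 for miR-7a-5p in pancreas, and 109 for miR-7b-5p and 330 for miR-7a-5p in brain. The order of pancreas and brain for miR-7a-5p was thus the reverse of that in CPM over miRNA counts. The denominator over 7 classes was not run, and LAR MAT had too few own-profile libraries for a fit between arms. Low counts limit miR-7b-5p outside pancreas and brain.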

Other observations

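In spleen miR-375-3p had a wide range. Among the 40 spleen libraries with a spleen profile it ran from 4.86 to 4677 CPM, with quartiles of 30.1 and 771 CPM. Of the 10 spleen libraries above 1000 CPM, 7 had a spleen profile and 7 an exocrine sum above 100 CPM. miR-7a-5p in the same 40 libraries ran from 554 to 3622 CPM, with quartiles of 1490 and 2084 CPM.

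miR-7b-5p above 30 CPM outside brain, pancreas and MAT was seen most often in thymus, in 15 of 58 libraries, of which 14 had a thymus profile and 10 had an exocrine sum above 100 CPM or a brain sum above 1000 CPM. Over all 58 thymus libraries the brain sum had a median of 931 CPM, near that limit. In BAT 9 of 60 and in diaphragm 7 of 59 libraries passed 30 CPM of miR-7b-5p, all with raised exocrine or brain miRNAs and none with the profile of its own tissue.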
